A study of Mus musculus with 6 samples.

Results

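Cleavage positions of polyadenylated RNA whose poly(A) signal was ATTAAA, the signal that ranked 2 by reads, numbered 344196 of the 2341170 positions mapped in mouse embryonic stem cells, of which 2333467 lay outside chromosome M. Each mapped position carried 1 of 36 hexamers of the poly(A) signal type, and the hexamers were ranked by their reads summed over all libraries outside chromosome M. All positions with the hexamer of rank 2 were taken as members, with no filter on reads. The members held 44628538 reads, or 17.2% of the reads outside chromosome M. Positions with AATAAA, the hexamer of rank 1, numbered 946527 and held 70.4%.

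The cells were V6.5, an embryonic stem cell line of mixed C57BL/6 and 129 background, kept under standard culture. There were 3 groups of 2 biological replicates: no treatment, a scrambled AMO, and a U1 AMO, where an AMO is an antisense morpholino oligonucleotide, a synthetic strand that pairs with an RNA and blocks it. For the conditions of U1 inhibition the labels point to an earlier study, and no dose or time is given in the sources used here. All groups share the line and the library method, and the labels give no genetic change in any of them. The libraries were made from bulk RNA, so fewer cells using a site and less RNA from it per cell cannot be told apart.

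A poly(A) signal lies upstream of the place where a nascent RNA is cut and given its poly(A) tail. The hexamer is bound by the CPSF30 and WDR33 subunits of the cleavage and polyadenylation specificity factor (CPSF), which best recognises AAUAAA, and AUUAAA is the most frequent natural variant. U1, the small nuclear ribonucleoprotein that pairs with 5′ splice sites, is also known to hold back cleavage at poly(A) signals inside transcribed regions, which is why its inhibition is used to look for such sites.

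The 4 signals with the most reads are shown as DNA, 5′ to 3′ on the strand of the RNA, with capitals marking the bases that differ from the commonest signal. The member signal carries the substitution A2T, counted from 1 at the 5′ end of the hexamer.
rank 1: aataaa
rank 2, the members: aTtaaa
rank 3: aGtaaa
rank 4: Tataaa
The signal of rank 3, with A2G, held 3.11% of the reads, and that of rank 4, with A1T, held 2.01%. Members averaged 130 reads per position, against 193 at AATAAA, 91.0 at AGTAAA and 48.3 at TATAAA. Members thus stood between the commonest signal and the next 2 in reads per position.

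The 6 libraries held 15752080 to 62257923 reads, and replicate 1 of the U1 AMO was the shallowest. By the read names, the scrambled AMO and U1 AMO libraries numbered 1 shared a sequencing run and lane, and those numbered 2 shared a second run but not the lane. The untreated libraries were each on a different run, so any difference from untreated cells cannot be told apart from the run. Positions within 24 nt of each other on a strand were joined into 931826 clusters, of which 118230 had a member as their strongest position (member clusters) and 298430 an AATAAA position. Levels are given as CPM, the reads of a cluster scaled to the total of its library. Gene names and the markers of the cell type were not examined, since an annotation of the mouse build of these files (mm9) was not used here, and clusters are given by mm9 position.

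The member set depends on how a position with several signals was listed. Signals could be placed on the genome from each position and its deposited distance to the hexamer, which runs from 6 to 40 nt. A copy with no position listed under it cannot be seen this way, so counts of neighbouring copies are minima. At 13062 positions both an AATAAA and an ATTAAA copy lay in that range, and all 13062 were listed with AATAAA. These positions carried 4167666 reads, equal to 1.61% of all reads outside chromosome M and to 9.34% of the reads at members. Where ATTAAA stood beside a signal of rank 3 or lower and no AATAAA, all 30818 positions were listed with ATTAAA. At the 3598 positions with more than 1 ATTAAA copy the distance was given to the nearest copy. A member is therefore a position with ATTAAA and without AATAAA in the range, as far as placed copies show, and a share of reads at members leaves out reads at ATTAAA copies next to AATAAA, by at least the amount given.

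The signals reach into each other at some sites. In the runs that follow, which are shown because a site with such a run holds both signals, each run was put together from 2 placed copies, and capitals mark the member signal.
ATTAAA then AATAAA 4 nt on: ATTAAAtaaa
ATTAAA then AATAAA 5 nt on: ATTAAAataaa
AATAAA then ATTAAA 5 nt on: aataaATTAAA
ATTAAA then ATTAAA 5 nt on: ATTAAATTAAA
The first run was found at 157 places, the second at 58, the third at 56 and the run of 2 ATTAAA copies at 17. At the 8 overlaps of the 2 signals that the letters do not allow, 0 pairs were found. These counts are minima, since a pair is found only where each copy has a listed position. In all, at least 3265 of 122429 ATTAAA copies had an AATAAA copy within 40 nt.

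Most member positions were rare, and most member reads lay at positions that recurred. A read was found in only 1 library at 186062 members (54.1%), which together held 0.635% of the member reads. A read was found in all 6 libraries at 36394 members (10.6%), and these held 95.4% of the member reads. For AATAAA the positions seen in all 6 libraries made up 13.3% and held 96.5% of its reads. Members thus recurred across libraries a little less than AATAAA positions, without a test of that difference.

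ATTAAA copies with at least 10 reads mostly gave cleavage over a window rather than at 1 base. Of all 122429 copies, 72592 (59.3%) had a single listed position, against 56.0% of AATAAA copies. The largest number was 35, which fills every distance from 6 to 40 nt. Copies with 10 to 100 reads had a median of 5 positions, those with 100 to 1000 reads 11, those with 1000 to 10000 reads 17, and the 785 copies with at least 10000 reads 21. The same medians were found for AATAAA copies in each of these 4 ranges. All 35 distances were filled at 7 ATTAAA copies, among them the copy of the strongest member cluster on chromosome 11.

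ATTAAA led a similar share of clusters at every level above the lowest. It led 12.3% of clusters with a mean of up to 0.1 CPM over the 6 libraries, 15.7% at 0.1 to 1, 17.9% at 1 to 10, 17.7% at 10 to 100 and 17.0% above 100 CPM. AATAAA led 30.2% of the lowest clusters and 72.7% of those above 100 CPM. From 1 CPM upward the ATTAAA share stayed between 17.0% and 17.9%, while the AATAAA share was larger at each step.

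Member reads were concentrated in few clusters. The 10 strongest member clusters held 12.9% to 16.1% of the member reads of a library, and the 1000 strongest held 80.2% to 83.8%. The strongest, at chr11:68718003-68718057 on the plus strand, had 11610 and 6640 CPM in untreated cells, 9186 and 9150 CPM under the scrambled AMO and 8502 and 10393 CPM under the U1 AMO. The groups overlapped at this cluster, and it alone held 3.75% to 6.54% of the member reads of a library. It was cut most often 18 nt from its signal.

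The next clusters by level were well below it. The cluster at chr16:90226559-90226585 (plus strand) measured 3051 and 2047 CPM in untreated cells, 3038 and 2855 under the scrambled AMO, and 3442 and 2893 under the U1 AMO. At chr7:135125531-135125588 (plus strand) the levels were 1902 and 1611, 2144 and 2759, and 2469 and 2463 CPM in the same order. The AMO groups overlapped at both clusters (edgeR adjusted p = 1 for each, n = 2 per group).

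The cluster at chr2:154698154-154698191 (minus strand) had 1887 and 3515 CPM in untreated cells, 1507 and 1370 CPM under the scrambled AMO, and 969 and 1188 CPM under the U1 AMO. The 3 groups did not overlap there, and the U1 AMO was lowest. Its fall from scrambled to U1 AMO passed in a fit of the AMO libraries alone that holds the run as a term, at −0.44 ± 0.15 (log2, SE; edgeR adjusted p = 0.0313), and not in the fit of all 6 libraries (edgeR adjusted p = 1). The fifth cluster by level, at chr4:116372062-116372138 (plus strand), had 1844 and 1413, 1845 and 1565, and 1830 and 1745 CPM in the same order, with overlapping groups.

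By chromosome, members made up 12.9% of positions on the X and 14.2% to 15.4% on the autosomes, and 18.9% of the 1250 positions on the Y. Their share of reads varied more, from 8.41% on the Y and 11.1% on chromosome 15 to 24.7% on chromosome 11. Without the strongest cluster, which held 2401562 reads, the share on chromosome 11 was 18.3%.

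Members were cut at the usual distance from their signal. In each of the 6 libraries the commonest distance was 20 nt, and 92.2% to 93.4% of member reads lay 15 to 30 nt from the hexamer. The read-weighted mean distance was 21.83 and 21.61 nt in untreated cells, 21.80 and 21.88 nt with the scrambled AMO, and 21.86 and 21.83 nt with the U1 AMO. At AATAAA it was 22.20 and 21.79, 22.06 and 22.16, and 22.09 and 22.14 nt in the same order.

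The mean was thus shorter for members in 6 of 6 libraries, by 0.271 nt on average (exact sign-flip permutation test, two-sided, p = 0.03125, the smallest that 6 pairs allow). The libraries share the same genomic sites, so that p measures the libraries and not the sites. The sign depended on the weighting: with each position counted once members were longer by 0.0576 nt (exact p = 0.281), and with each copy of at least 10 reads counted once they were longer by 0.224 nt (exact p = 0.03125). At the strongest position of each cluster members were longer by 0.491 nt (exact p = 0.03125). Without the single strongest member cluster the read-weighted difference was −0.0906 nt, and without the 10 strongest clusters of each signal it was +0.0228 nt (exact p = 0.469). The sign of the difference thus rested on the strongest clusters and on the weighting. Between the AMO groups the member mean differed by 0.00184 nt (exact permutation p = 1, n = 2 per group).

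**Figure D1:**
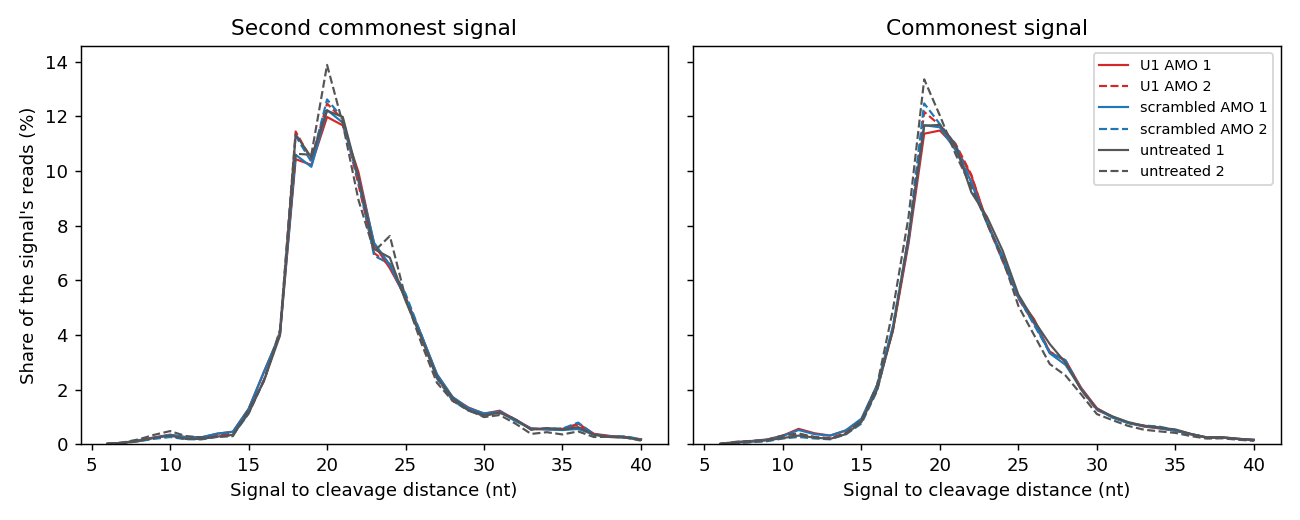
Share of reads (%, y axis) by distance from signal to cleavage position (nt, x axis), for ATTAAA on the left and AATAAA on the right, with 1 line per library. The 6 lines lie close together in each panel, and the ATTAAA lines are highest at 20 nt.

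The share of reads at members was close between the AMO groups. It was 17.84% and 17.79% in untreated cells, 16.70% and 16.86% under the scrambled AMO, and 16.50% and 16.97% under the U1 AMO. The U1 AMO mean, 16.7% ± 0.333 (SD, n = 2), stood against a scrambled mean of 16.8% ± 0.111, a difference of −0.0503 percentage points (exact permutation test, two-sided, p = 1). Within runs the difference was −0.207 and +0.106 points, so the pairs moved in opposite directions.

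Both AMO groups were below untreated cells with no overlap, at −1.03 points for the scrambled AMO and −1.08 points for the U1 AMO (exact permutation p = 0.333 for each, the smallest that 2 libraries against 2 allow). In clusters above 100 CPM members took 17.99% and 17.73% of reads in untreated cells and 16.30% to 16.62% in the 4 AMO libraries. In clusters of 10 to 100 CPM they took 17.7% and 18.0% in untreated cells and 16.9% to 17.6% in the AMO libraries, again with no overlap. Without the 100 strongest member clusters the gaps were −0.964 and −1.12 points. Without the 1000 strongest, which hold most member reads, the remaining members took 2.93% and 3.09% in untreated cells, 2.95% and 2.73% under the scrambled AMO and 3.26% and 3.05% under the U1 AMO, gaps of −0.170 and +0.148 points with overlapping groups.

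Counted as distinct positions, each once, members were a larger share with the U1 AMO than in the scrambled libraries. The shares were 16.22% and 14.91% in untreated cells, 15.40% and 15.32% under the scrambled AMO, and 16.45% and 15.91% under the U1 AMO. The U1 AMO libraries were above both scrambled libraries, by 0.819 points on average and by 1.05 and 0.593 within runs (exact permutation p = 0.333, n = 2 per group). The share of AATAAA positions was also larger with the U1 AMO within each run, at 50.7% against 47.8% in replicate 1 and 44.0% against 43.3% in replicate 2, so a larger share was not particular to members.

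The number of distinct positions depends on depth. At an equal depth of 15413148 reads per library the share was 16.64% and 15.86% in untreated cells, 15.68% and 16.18% under the scrambled AMO, and 16.45% and 16.69% under the U1 AMO. The U1 AMO libraries stayed above both scrambled libraries at that depth, and the untreated libraries spanned from below to within the U1 AMO range. Among positions with at least 10 reads, a limit chosen after seeing the data, the AMO groups overlapped, at 17.07% and 17.57% under the scrambled AMO and 17.17% and 17.96% under the U1 AMO.

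**Figure D2:**
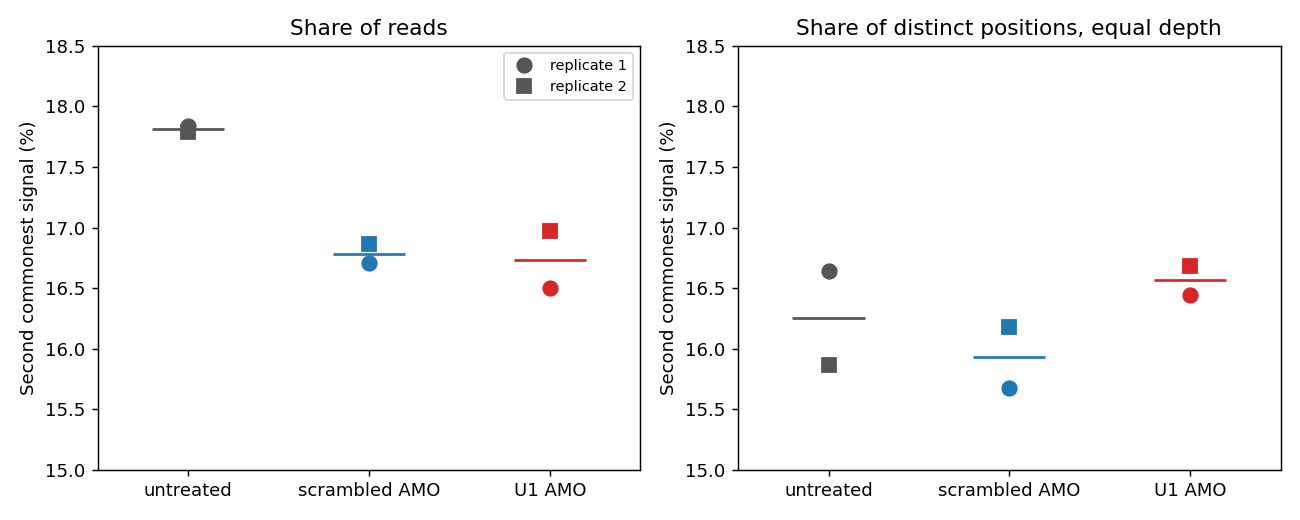
Share (%, y axis, which starts at 15) of members among reads on the left and among distinct positions at equal depth on the right, by group (x axis), with 1 point per library and a bar at the mean of 2. Both AMO groups lie below untreated cells in reads, and the U1 AMO points, 16.45% and 16.69%, lie above the scrambled AMO points in positions.

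A set of member clusters that were nearly silent in the controls rose with the U1 AMO. With all 6 libraries in one fit, 123 of 13265 member clusters tested rose with the U1 AMO against the scrambled AMO (0.927%), where 0.666% of all 80049 clusters tested and 0.715% of AATAAA clusters did so (edgeR quasi-likelihood test, adjusted p under 0.05, n = 2 per group). None of the member clusters fell in that test, and DESeq2 also called 0 falls. Over all 80049 clusters both tests called 0 falls as well. At an unadjusted p under 0.05 edgeR gave 1600 of the 13265 member clusters in either direction, with no such count taken over all clusters. Member clusters for which both U1 AMO libraries lay above both scrambled libraries numbered 3366 (25.4%), against 20.8% of all clusters tested.

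The count of 123 depended on which libraries entered. It was 22 without scrambled AMO replicate 1, 0 without scrambled AMO replicate 2, 268 without U1 AMO replicate 1 and 14 without U1 AMO replicate 2. Leaving out untreated replicate 1 or 2 gave 629 or 671, and fitted with a replicate block it was 0. Leaving out a library also changed which clusters were tested. The 13265 members tested became 18161, 14975, 17754 and 13910 in the order given, and 18017 or 14216 without an untreated library. Calls over all clusters moved in the same directions, and with the replicate block 0 of all 80049 passed. In the fit of all 6 libraries the median log2 fold change of the member clusters tested was −0.01, against −0.02 over all clusters tested.

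The raised members together took 0.209% and 0.188% of U1 AMO reads, 0.00525% and 0.00430% of scrambled AMO reads, and 0.00248% and 0.00278% of untreated reads. Both U1 AMO libraries were above all 4 others. Against the scrambled AMO this follows from how the 123 were called, since the same libraries decided the calls. The median rise of the 123 was 85.9-fold from pooled CPM, with the scrambled AMO set to at least 3 reads over the group. In 47 of them that group had 3 reads or fewer, and in 24 it had none, and such clusters pass the filter on low counts mainly through their U1 AMO reads. Over all 533 raised clusters the median was 89.5-fold, with 3 reads or fewer in 204 and none in 76.

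The 5 largest fitted log2 fold changes among called members with a mean of 5 CPM or more over the 4 AMO libraries are given next; at few or no control reads this order depends on the prior count of the fit. They went from almost no reads to between 9.03 and 63.7 CPM in the single libraries. At chr5:140902935-140902948 (plus strand), a cluster 14 nt wide cut 22 nt from its signal, the U1 AMO libraries counted 228 and 1035 reads, and none of the other 4 libraries had any. That is 14.5 and 17.9 CPM, and 509-fold higher than the scrambled AMO set to a floor of 3 reads over the group (edgeR adjusted p = 0.0266). The lower 95% counting limit of the ratio was 413. At chrX:71483956-71483973 (minus strand), cut 19 nt from the signal, the U1 AMO libraries counted 255 and 776 reads, with none in the other 4.

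That cluster on the X stood at 16.2 and 13.4 CPM, 416-fold higher than the scrambled AMO by the same floor (edgeR adjusted p = 0.0255). The lower 95% counting limit of its ratio was 337. Neither site was detectable in controls at this depth. At chr17:28851415-28851436 (plus strand) the U1 AMO libraries had 244 and 523 reads, scrambled AMO replicate 1 had 1 read and the other 3 libraries none. The ratio of pooled levels there was 928, with a 95% counting interval from 166 to 36685 that covers counting error only (edgeR adjusted p = 0.0315). Set to the floor of 3 reads used for both clusters without scrambled reads, it was 309, the smallest of the 5.

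At chr9:75295252-75295269 (plus strand), cut 25 nt from its signal, the U1 AMO libraries had 33.7 and 38.0 CPM, the scrambled AMO 0.112 and 0.0161 CPM from 4 reads, and untreated cells no reads. The ratio was 826, with a 95% counting interval of 322 to 3034 (edgeR adjusted p = 0.0245). The highest of these 5 in the U1 AMO libraries was chr2:128929801-128929811 (plus strand), at 53.5 and 63.7 CPM. It had 0.0745 and 0.0642 CPM with the scrambled AMO, none in untreated cells, and a ratio of 913 (95% counting interval 419 to 2490; edgeR adjusted p = 0.0212). By the same floor chr7:133643457-133643483 (minus strand, 624), chr4:153353347-153353374 (plus strand, 504) and chr17:35289391-35289410 (minus strand, 458) also stood above the cluster on the X. The first 5 clusters consisted only of positions listed with ATTAAA.

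**Figure D3:**
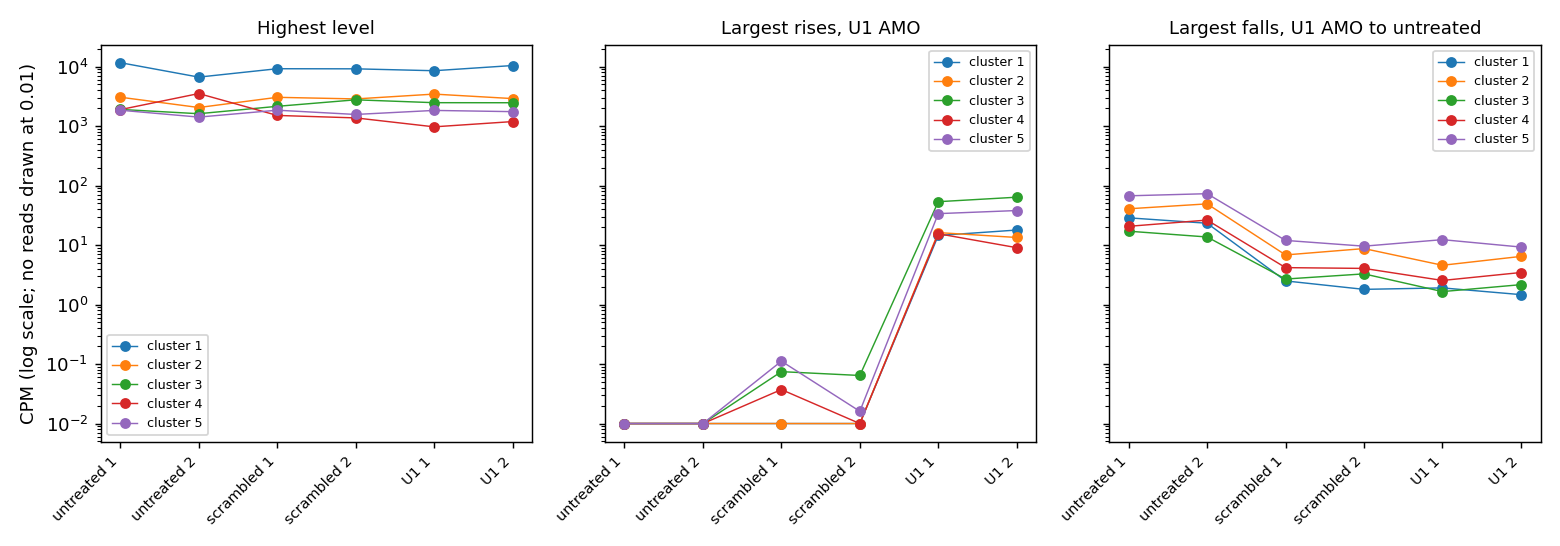
Levels (CPM, log scale, y axis; libraries with no reads are drawn at 0.01) in the 6 libraries (x axis) of the 5 strongest member clusters, the 5 largest rises with the U1 AMO against the scrambled AMO, and the 5 largest falls with the U1 AMO against untreated cells. Rises and falls are drawn from called members averaging 5 CPM or more. Clusters are numbered by rank in each panel. The rises go from near or at the 0.01 line to 9.03 CPM or more. The falls are already low in the scrambled AMO libraries.

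When the 4 AMO libraries were fitted alone with a term for the run, many more member clusters passed, in both directions. In this fit 1986 of 11571 members tested rose (17.2%), where 13.4% of all 68821 clusters tested and 14.1% of AATAAA clusters rose (edgeR, adjusted p under 0.05, n = 2 per group). A further 280 members fell (2.42%), against 2.28% of all clusters and 2.64% of AATAAA clusters. The 123 clusters above were all among the 1986, of which they were 6.19%. Only 1 residual degree of freedom is left in this fit, and its p-values therefore borrow from the spread common to all clusters, a dispersion of 0.0244 against 0.329 in the fit of all 6 libraries.

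The 1986 raised members took 1.11% and 0.919% of the reads in the U1 AMO libraries, 0.384% and 0.328% under the scrambled AMO and 0.345% and 0.263% without treatment. Their median rise was 11.3-fold with the floor of 3 reads, and the scrambled AMO group had 3 reads or fewer in 921 and none in 441. Over all 9199 raised clusters the median was 10.5-fold, with 3 reads or fewer in 3997 and none in 1871. The 280 that fell went from 1.46% and 1.56% of scrambled AMO reads to 0.911% and 1.21% of U1 AMO reads, with a median fall of 1.42-fold. Over all 1571 falls the median was 1.43-fold. In the scrambled AMO libraries the falls had median levels of 21.7 and 20.5 CPM and the rises 0.0372 and 0.0482 CPM. These libraries decided the calls, so a called rise tends to be low there by selection, and a weak cluster has little room to pass as a fall.

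The share of members that rose was smaller at higher levels. At a mean of 0.1 to 1 CPM over the 6 libraries 22.3% of the members tested rose, at 1 to 10 CPM 13.3%, at 10 to 100 CPM 5.39%, and above 100 CPM 2.48% (8 of 322). AATAAA clusters gave 18.8%, 11.8%, 4.68% and 4.51%, and clusters led by other signals 11.1%, 7.99%, 5.93% and 5.31% in the same order. The members had the largest share of the 3 kinds in the lower 2 ranges and the smallest above 100 CPM, and these differences between kinds were not tested. The share of members that fell ran the other way, from 0.206% at 0.1 to 1 CPM to 10.9% above 100 CPM. It did so for AATAAA clusters (0.207% to 9.01%) and for clusters led by other signals (0.370% to 13.0%) as well. The mean level includes the U1 AMO libraries, and a cluster absent from the controls reached the low ranges only through its U1 AMO reads.

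**Figure D4:**
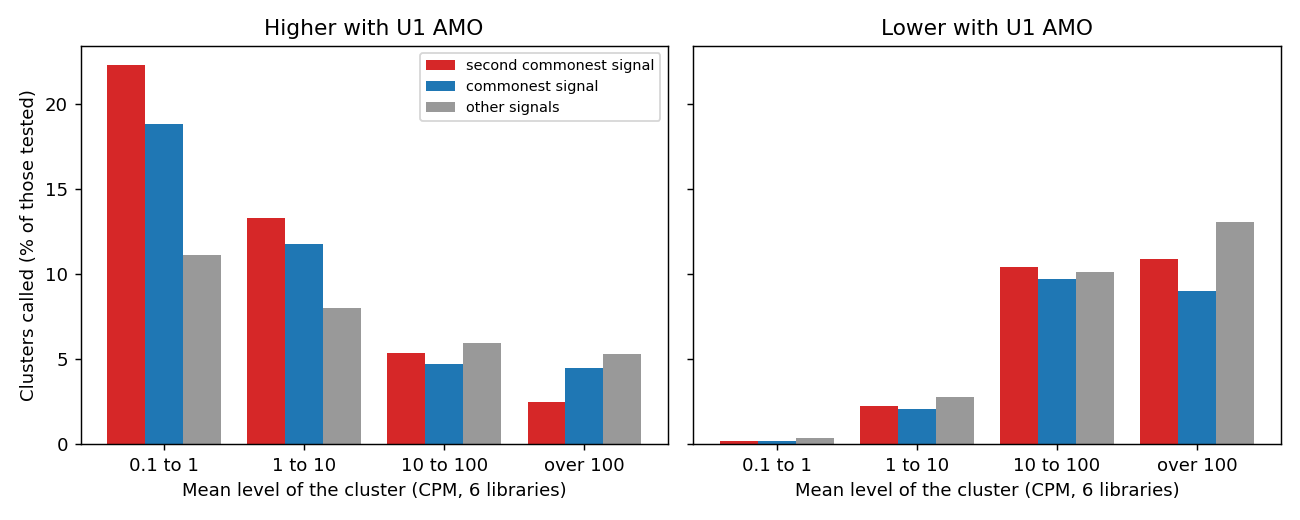
Share of the tested clusters (%, y axis) that rose (left) or fell (right) with the U1 AMO in the fit with the run as a term, by mean level (CPM, x axis), for clusters led by ATTAAA, by the commonest signal (AATAAA) or by others. Clusters of up to 0.1 CPM are not drawn. Over the ranges drawn, rises among ATTAAA clusters go down from 22.3% to 2.48% with level, and falls go up to 10.9%.

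**Figure D5:**
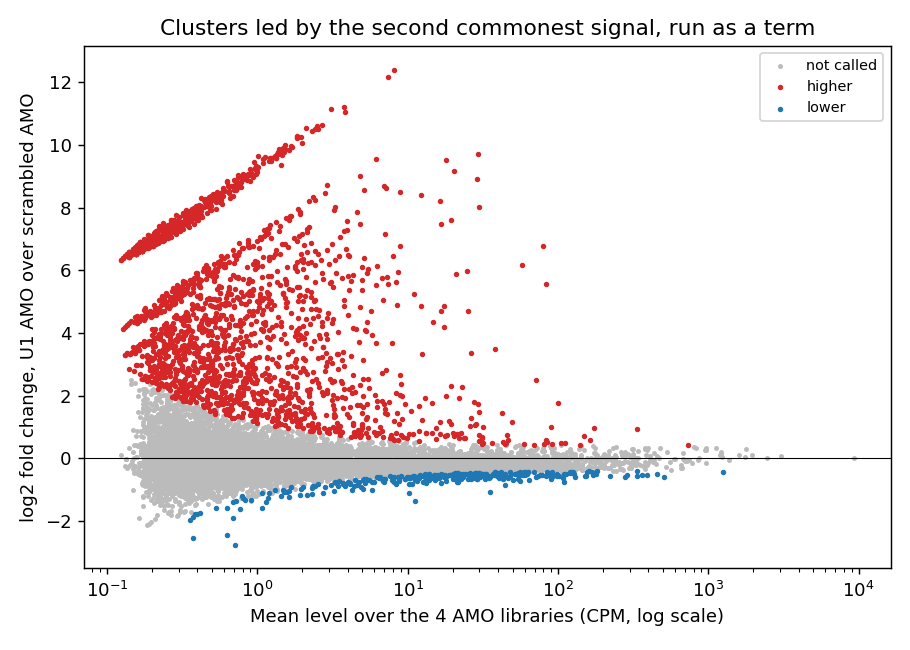
Fitted log2 fold change (y axis) against mean CPM over the 4 AMO libraries (x axis, log scale) for the 11571 member clusters tested with the run as a term, with 1 point per cluster. The 1986 rises reach above 12 on the log2 scale at low and middle levels, the slanted lines at the top are clusters with 0 or few scrambled AMO reads whose fitted folds depend on the prior count, and the 280 falls stay within 3.

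Among called members averaging 5 CPM or more in the 4 AMO libraries, the 3 largest falls of this fit had unequal replicates. At chr14:81299853-81299856 (plus strand), a cluster of 3 positions, the scrambled AMO libraries had 6.00 and 22.4 CPM and the U1 AMO libraries 0.190 and 16.4 CPM, a fall of 1.37 ± 0.344 on the log2 scale (SE; edgeR adjusted p = 0.00338). The groups overlapped, and replicate 1 of the U1 AMO had 3 reads. At chr16:45746342-45746358 (minus strand) the values were 22.1 and 6.55 CPM against 8.44 and 3.76 CPM, a fall of 1.11 ± 0.201 (edgeR adjusted p = 6.1e-05).

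At chr10:79781436-79781460 (minus strand) they were 33.1 and 59.8 CPM against 11.8 and 36.4 CPM, a fall of 1.09 ± 0.174 (edgeR adjusted p = 8.67e-06). Both clusters were lower with the U1 AMO within each run while the groups overlapped across runs. Over all 280 falls the 2 groups did not overlap at 205, and over the 1986 rises at 1950. Among all called clusters this was so at 1082 of 1571 falls and 8833 of 9199 rises. The same libraries decided the calls, so much of this separation follows from the calling. Over all members tested in that fit 1781 (15.4%) lay lower without overlap, against 14.2% of all clusters, and 3131 (27.1%) lay higher, against 22.1%.

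The scrambled AMO was also compared with untreated cells. The AMO and the run cannot be told apart there, so the comparison does not check the AMO alone. In edgeR 0 of 13265 member clusters passed (0% of all clusters tested in either direction). Of these members, 1820 had an unadjusted p under 0.05, with no such count taken over all clusters. A count of 0 does not mean no change, since a large fitted change can fail to pass. At chr12:8978290-8978310 the log2 change was −3.65 ± 0.387 (SE, edgeR adjusted p = 0.266). That cluster was picked as the largest listed fall from the same untreated libraries to the U1 AMO. Its size here follows partly from that choice. DESeq2 called 382 of the 13265, of which 202 were higher and 180 lower. Over all 80049 clusters DESeq2 called 2256, of which 1371 were higher and 885 lower. Groups did not overlap at 3601 members that were higher with the scrambled AMO (27.1%) and 2477 that were lower (18.7%), against 26.5% and 16.8% of all clusters. The median log2 change of the members tested was 0.09, against 0.15 over all clusters tested.

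With the U1 AMO against untreated cells 764 members rose (5.76%), where 4.39% of all clusters tested rose, and 96 fell (0.724%), where 0.505% fell (edgeR, adjusted p under 0.05, n = 2 per group). The rises took 0.569% and 0.492% of U1 AMO reads, 0.164% and 0.134% of scrambled AMO reads, and 0.0449% and 0.04996% of untreated reads. The falls took 0.425% and 0.543% of untreated reads, 0.187% and 0.176% under the scrambled AMO, and 0.145% and 0.146% under the U1 AMO. Both comparisons share the untreated libraries that chose these members. Groups did not overlap at 4853 members that were higher with the U1 AMO (36.6%) and 2909 that were lower (21.9%), against 33.9% and 19.6% of all clusters. The median log2 change was 0.20 over the members tested and 0.23 over all clusters. Without untreated replicate 1 the calls were 1857, without untreated replicate 2 they were 409, and without U1 AMO replicate 2 they were 225. Leaving out a library also changed the members tested, from 13265 to 18017, 14216 and 13910 in that order, and calls over all clusters moved in the same directions. With the replicate number as a block 0 passed, among the members and among all 80049 clusters. Of the 13265 members, 3249 had an unadjusted p under 0.05 in that fit, with no such count taken over all clusters.

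Among called members averaging 5 CPM or more, the largest of these falls was at chr12:8978290-8978310 (plus strand). It had 28.6 and 23.2 CPM in untreated cells, 2.496 and 1.80 under the scrambled AMO and 1.90 and 1.47 under the U1 AMO. It fell by 4.02 ± 0.396 on the log2 scale from untreated cells to the U1 AMO (SE; edgeR adjusted p = 0.0118). From scrambled to U1 AMO with the run as a term its change was −0.35 ± 0.30 (edgeR adjusted p = 0.555). Both AMO groups were below untreated cells, and the untreated libraries came from runs of their own.

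The cluster at chr8:47082240-47082272 (minus strand) measured 67.2 and 72.9 CPM in untreated cells, 11.96 and 9.57 under the scrambled AMO, and 12.3 and 9.25 under the U1 AMO (log2 change of −2.76 ± 0.30 from untreated cells to the U1 AMO, edgeR adjusted p = 0.0144). The AMO groups overlapped there. At chr2:34749270-34749307 (minus strand), cut 36 nt from its signal, the same levels were 40.7 and 49.2, 6.82 and 8.72, and 4.57 and 6.44 CPM, again low in both AMO groups (log2 change of −3.05 ± 0.39, edgeR adjusted p = 0.0185).

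Tandem sites set a member against a neighbour on the same strand. Among adjacent clusters at most 10 kb apart, each with a mean of at least 1 CPM, 1966 pairs had a member upstream and a member or AATAAA cluster downstream, at a median gap of 752 nt. The upstream members took 44.8% and 41.8% of the reads of these pairs in untreated cells, 44.5% and 44.4% under the scrambled AMO, and 45.2% and 45.6% under the U1 AMO. The U1 AMO libraries were above all 4 others for these pairs, by 0.928 points over the scrambled AMO and by 0.667 and 1.19 points within runs (exact permutation test, two-sided, p = 0.333, n = 2 per group). Among pairs whose clusters both reached 5 CPM the difference was 0.0251 points (exact permutation p = 1), and as a median over pairs it was 0.302 points (exact permutation p = 1). Pairs with AATAAA upstream of a member also differed, by 1.40 points (1.83 and 0.967 within runs, exact permutation p = 0.333), and pairs of AATAAA clusters by 0.384 points (0.540 and 0.228 within runs, exact permutation p = 0.667). A larger upstream share with the U1 AMO was thus not particular to upstream members.

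In pairs of unlike signals the AATAAA cluster was more often the stronger, on either side. In the 1441 pairs with ATTAAA upstream of AATAAA the upstream cluster was the stronger in 40.9%, and in the 1124 pairs with AATAAA upstream of ATTAAA it was the stronger in 56.3%. It was the stronger in 48.6% of 3578 pairs of AATAAA clusters and in 47.6% of 525 pairs of ATTAAA clusters. These counts describe the pairs and were not tested.

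Raised members lay upstream of a strong site more often than members that were not called. Of 1898 members that rose in the fit with the run as a term and had a mean under 10 CPM, 57.1% had a cluster of at least 10 CPM downstream on the same strand within 50 kb, at a median distance of 15970 nt. Of 7776 members under 10 CPM that were not called, 39.0% had such a cluster, at a median of 4855 nt. Members under 10 CPM that fell gave 45.6% (41 of 90) and 2767 nt. Raised AATAAA clusters gave 53.5% and 16422 nt. The share was not taken over all clusters or over AATAAA clusters that were not called. The raised clusters of both signals lay farther from the downstream site than the members that were not called, and these differences were not tested.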

How the data were processed

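The 3′ ends of poly(A)-selected RNA were sequenced in 6 libraries (3 groups of 2). Per the labels' protocols, RNA was cut with RNase T1, reverse transcribed, sized on gels, circularised and amplified by PCR, and no molecular identifiers are described. Reads were handled with cutadapt and Bowtie on mm9, per the submitters' processing notes; versions, and the rule for keeping positions, were not given in the sources used here. The authors deposited, per library, a list of stranded positions with raw read counts, a hexamer, its distance and a whole number from 0 to 10 whose meaning is not given. Every listed position had a hexamer.

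Positions were pooled, and neighbours on a strand no more than 24 nt apart formed a cluster. Counts per cluster were tested with edgeR 4.0.16 (R 4.3.3; quasi-likelihood, TMM, filterByExpr, Benjamini-Hochberg over all clusters), with DESeq2 1.42.0 as an alternative. The tests were tried on simulated data with the spread of the AMO libraries fitted with the run, and with no run effect. That trial does not check the fit of all 6 libraries at its own, larger spread. Python 3.11.15 (scipy 1.17.1, numpy 2.4.6, pandas 2.3.3, matplotlib 3.10.9) gave the other values. Permutation tests were exact and two-sided. Named clusters were the strongest members, and the largest folds among called members with a mean of at least 5 CPM, up to 5 of each list.

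Replicate numbers of the AMO groups mark shared runs in the read names, and deviations from the group means correlated at r = 0.84 over 14195 clusters, which are not independent; the fit with the run as a term (4 libraries) follows from this. The members, the tests and the lists were chosen with earlier results of these data known. Lists of cell type markers and of cleavage factor genes were not used. Intervals and floors cover counting error only.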

Additional observations from a re-analysis of the deposited data

How the results depend on the processing

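For the U1 AMO against the scrambled AMO, the 123 member clusters became 672 with no filter on low counts, 598 with the 4 AMO libraries alone, 736 in DESeq2 and 0 by single positions. The 533 over all clusters became 2912, 2599, 3129 and 0 in the same order. With the replicate number as a block over all 6 libraries the 123 became 0, and with the run as a term, which is the replicate block in the 4 AMO libraries, 2266. Over all clusters these 2 fits called 0 and 10770. Leaving out 1 library of either group gave 0 to 268. Leaving out an untreated library, chosen after seeing the data, gave 629 and 671. For the scrambled AMO against untreated cells the 0 became 191 with no filter and 382 in DESeq2, and over all clusters 1279 and 2256. For the U1 AMO against untreated cells the 860 became 1475 with no filter, 0 with the replicate block, 320 with the 4 libraries alone and 2050 in DESeq2, and 225 to 1857 without 1 library. Over all clusters the 3916 became 7175 with no filter, 0 with the replicate block, 1393 with the 4 libraries alone and 10187 in DESeq2. Alternatives to the fit with the run as a term were chosen after seeing the data. Its count of 2266 became 2360 under RLE scaling, 2204 without chromosome M, 2282 at a joining distance of 10 nt and 2267 with members assigned by most reads. By single positions, another unit, it called 3195 of 33318 member positions, against 2266 of 11571 member clusters. Over all features these were 15642 of 193555 positions and 10770 of 68821 clusters. The share of reads at members, U1 AMO minus scrambled AMO, ran from −0.286 to 0.185 points without 1 library, with 0.0285 and 0.185 of the opposite sign. Without the 1000 strongest member clusters, chosen after seeing the data, the difference of U1 AMO from untreated cells was 0.148 points. The distance difference reversed to 0.0576 nt (positions once), 0.491 nt (cluster peaks), 0.224 nt (copies once) and, chosen after seeing the data, 0.0228 nt (without the 10 strongest of each kind), and ran from −0.291 to −0.251 nt without 1 library (exact p = 0.0625, the smallest that 5 pairs allow). Under the alternatives run, the members' share of distinct positions (U1 AMO minus scrambled AMO) and their upstream share in tandem pairs kept a positive sign. A library left alone in its group is assumed to vary like the other groups. The causes were not tested. With 2 libraries per group and 15752080 reads in the shallowest, small changes at weak clusters were not detectable.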
